A study of Homo sapiens with 4 samples.

Results

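The cytoplasmic translation initiation factors (eIF) and elongation factors (eEF) were followed across 4 culture conditions of U87MG, an established human glioblastoma cell line. The rule takes genes by symbol, those whose name begins with EIF or EEF and a digit, with EIF1AY left out, and uses no measured value. The rule took in 60 genes of the 18132 genes on the array that had a probe set of their own, and it brought along the kinases, inhibitors and methyltransferases that carry these names. Of the 60, 5 bind GTP themselves (EIF2S3, EIF5B, EEF1A1, EEF1A2 and EEF2). Cells had 24 h of 10 µM mycophenolic acid (MPA), 100 µM guanosine, both compounds, or DMSO as the control, in medium with fetal bovine serum. Total RNA of each condition went to a single Affymetrix PrimeView array, so there were 4 arrays, no replicates, and no p-value or replicate error for any value here. A difference of a given size can therefore be described but not tested, and it belongs to these 4 cultures of 1 cell line.

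IMP dehydrogenase, the target of MPA, directs purine synthesis toward guanine nucleotides, and guanosine refills that pool through salvage. Translation spends GTP at several steps. The initiation factor eIF2 carries the initiator tRNA to the small ribosomal subunit as a GTP complex and releases it at the start codon once eIF5 has triggered hydrolysis. A second GTPase, eIF5B, joins the subunits. During elongation eEF1A brings each aminoacyl-tRNA as a GTP complex and eEF2 spends GTP on translocation. Exchange factors reload eIF2 and eEF1A with GTP, and kinases that phosphorylate eIF2 alpha block that reloading under stress. The arrays read mRNA, not protein, phosphorylation or bound nucleotide.

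Values are RMA signals on the linear scale, 1 per probe set. Each gene is given by its brightest probe set over the 4 arrays. Differences are of log2 signal, the first-named condition minus the second. A gene was compared when the brighter of the 2 arrays reached 63.0, the median signal of all non-control probe sets over the 4 arrays. On all 4 arrays, 56 members reached this floor, and 4 were below it on every array: EEF1A2, EIF4E1B, EIF4E3 and EIF5AL1. Since RMA scales the arrays to a common distribution, less mRNA per cell, or fewer cells, cannot be told apart from no change. The glioma and astrocyte markers VIM, CD44, NES and SOX9 were above the floor on all 4 arrays, although NES, with 142 with MPA against 221 in the control, and SOX9, with 170 against 269, were lower with MPA by -0.63 and -0.66. The 3 leukocyte markers measured were below it on all 4. Of 3 endothelial markers, CDH5 was below the floor on every array, VWF was above it on all 4 and PECAM1 on 2. Of 3 epithelial markers CDH1 and KRT19 were below it throughout, and EPCAM had 102 with MPA, against 55.5 in the control.

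With MPA alone most of these genes had a lower signal. Of the 56 compared, 42 were lower on the MPA array than on the control array, and the median log2 difference was -0.18. Over all 11204 genes compared 49.1% were lower, and the median was 0.01. The MPA array was the lowest of the 4 for 39 members, or 69.6%, against 41.7% of all genes. The individual differences were small: 3 members were lower by at least 1.5-fold and 0 were higher by that much, where 7.31% of all genes were lower and 5.31% higher past the same size. The members' share, 5.36%, was below that background. It depends on how a gene is represented: with the median over a gene's probe sets it was 10.9%, or 6 of 55 members, against 6.88% of all genes, and with _x_at probe sets left out 7.55% against 7.52%. On the brightest probe sets no member was lower by 2-fold, a size reached by 1.4% of all genes. With the median over its probe sets EIF5 passed that size, at -1.22.

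The spike-in controls and the brighter genes moved in the direction of this shift, and the background probes moved the other way. All 12 probe sets for the poly-A spike-ins, bacterial transcripts meant to go into the RNA at fixed amounts before labelling, read lower with MPA than in the control, by -0.58 to -0.13 and a median of -0.29. The 9 probe sets of the hybridisation spike-ins, which enter after labelling, were all lower too. They differed by less, from -0.17 to -0.03 with a median of -0.07. The 6 background probe sets richest in G and C were higher with MPA, by a median of 0.26. Brighter genes as a whole were also lower: with the floor raised to the 75th percentile, a signal of 244, the median was -0.19 over 51 members and -0.05 over all 6697 genes. A further cyclic loess step, which removes differences that follow brightness, left a member median of -0.11 with 35 of 56 lower, against 0.04 over all genes. The part of the labelling controls and of brightness in the members' shift was not tested.

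**Figure D1:**
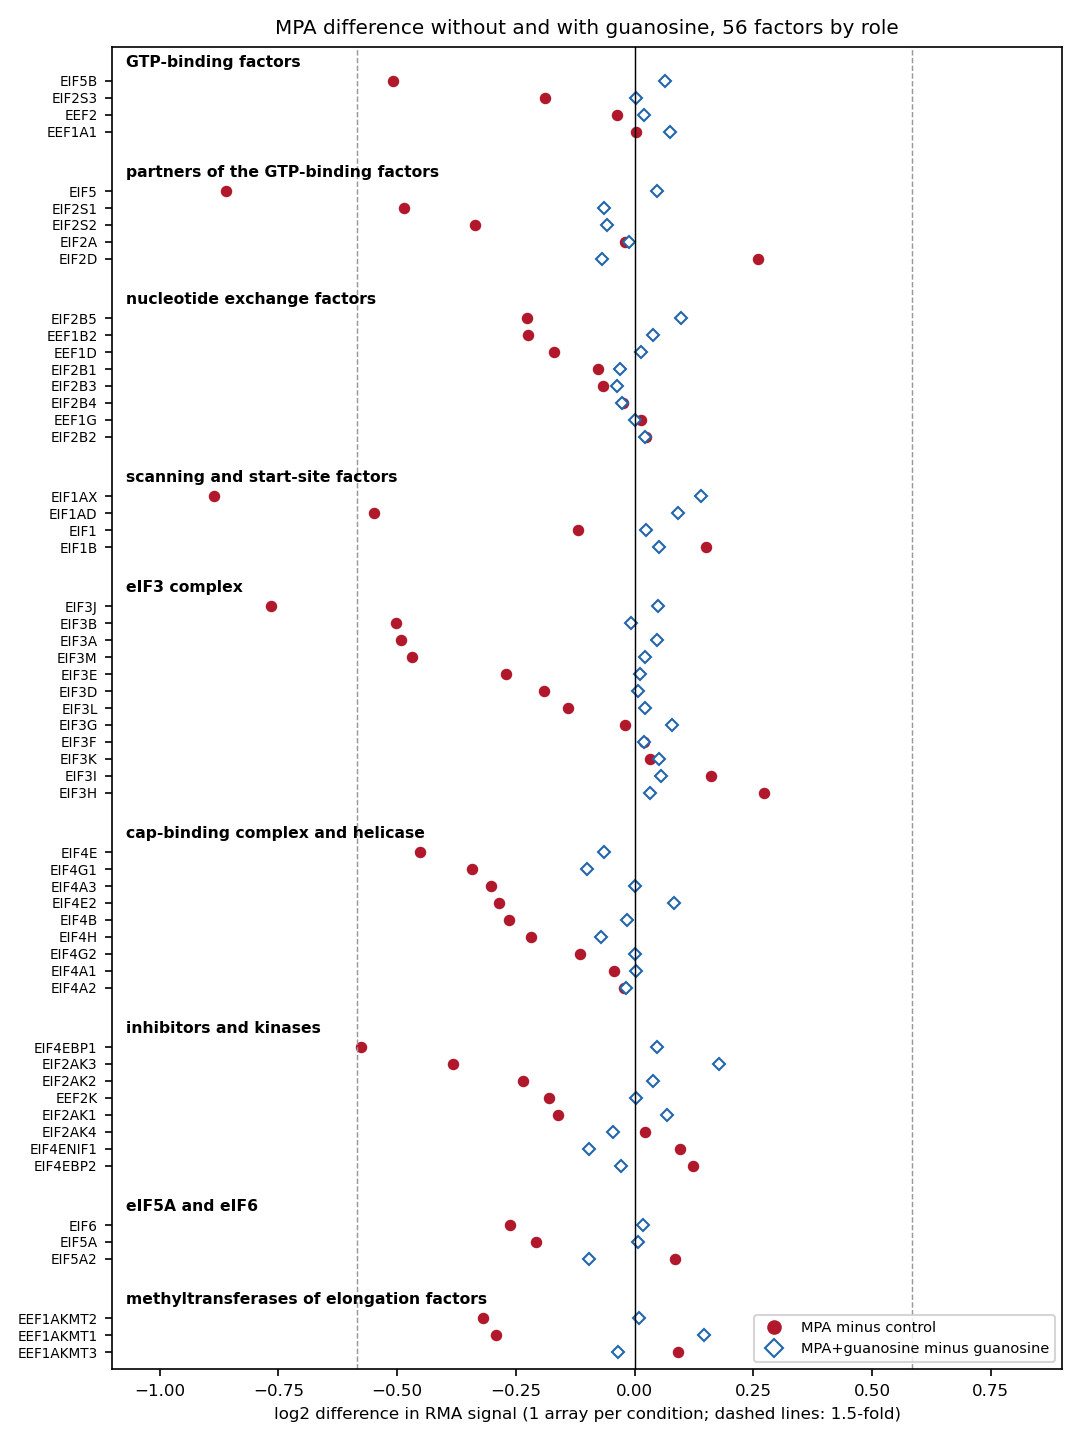
Log2 difference in signal for the 56 members above the floor, by role, for MPA minus control (filled circles) and for both compounds minus guanosine (open diamonds), 1 array per condition. The circles spread from -0.89 to 0.27, and the diamonds lie between -0.10 and 0.18.

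Among the GTP-binding factors the pattern was uneven. EIF5B, the subunit-joining GTPase, had a signal of 802 with MPA, 1142 with guanosine and 1194 with both, against 1140.0 in the control. MPA gave the low array and the other 3 lay close together. The difference with MPA was -0.51, and all 4 EIF5B probe sets were lower, by -0.51 to -0.34. EIF2S3, the gamma subunit of eIF2 that holds GTP and the initiator tRNA, had 1312 with MPA, 1702 with guanosine and 1707 with both, against 1495 in the control. Here both guanosine arrays were above the control by 0.19, and the MPA array was below it by -0.19. Of its 4 probe sets 1 went the other way, at 0.08.

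The elongation GTPases had nearly level signals. EEF2 had 11831 with MPA, 12001 with guanosine and 12167 with both, against 12140 in the control, a difference of -0.04 with MPA. Its 8 probe sets lay between -0.10 and -0.01. EEF1A1 had 13755 with MPA, 13072 with guanosine and 13759.7 with both, against 13726 in the control, a difference of 0.00 with MPA. That value rests on a probe set whose probes can bind other sequences, and EEF1A1 has many near-identical copies in the genome. The brightest EEF1A1 probe set without this mark was higher by 0.35, with 185 on the MPA array and 145 on the control array. EEF1A2, the isoform of muscle and neurons, was below the floor throughout, with 45.1 with MPA, 41.7 with guanosine and 43.4 with both, against 45.0 in the control. On the brightest probe sets the 4 GTP-binding factors compared had a median of -0.11 and the 52 other members -0.19. The GTP-binding group was there the nearer of the 2 to the control. With the median over each gene's probe sets the GTP-binding factors were at -0.18, and all members together were also at -0.18. Over EIF5B and EEF2 alone, whose probe sets all had 1 direction, the median was -0.27.

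The next group holds the subunits and activator of eIF2 together with EIF2A and EIF2D, which can bring initiator tRNA without eIF2. EIF5, the GTPase activator of eIF2, had 2424 with MPA, 4440.3 with guanosine and 4589 with both, against 4398 in the control. With MPA the signal was 0.551 times the control, a log2 difference of -0.86 and the second lowest of all members, while the guanosine arrays were at 0.01 alone and 0.06 with both. All 7 EIF5 probe sets were lower with MPA, between -1.52 and -0.86, and the brightest one used here gave the smallest of the 7 differences. The alpha subunit EIF2S1, the one that the stress kinases phosphorylate, had 1730.3 with MPA, 2227 with guanosine and 2131 with both, against 2422 in the control. Its difference with MPA was -0.48, and both guanosine arrays also lay below the control, by -0.12 with guanosine and -0.18 with both.

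The beta subunit EIF2S2 differed by -0.34 on its brightest probe set, but the other one above the floor was higher by 0.22, so the direction depends on the probe set. EIF2D, which also acts in ribosome recycling, was the member of this group with the highest value. Its signals were 802 with MPA, 712 with guanosine and 679 with both, against 669.7 in the control, a difference of 0.26. That put MPA highest of the 4 arrays. EIF2A was at -0.02. In all, 4 of the 5 genes were lower with MPA, with a median of -0.34.

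The nucleotide exchange factors were close to the control. Their 8 genes, the eIF2B subunits and the eEF1B subunits, had a median of -0.07 and 6 were lower. EIF2B5, the catalytic subunit of eIF2B, was the lowest, with 365 with MPA, 374 with guanosine and 400.0 with both, against 427 in the control. The control was the high array, and the differences were -0.23 with MPA, -0.19 with guanosine and -0.09 with both. EIF2B2 was the highest, with 1573 with MPA, 1361 with guanosine and 1383 with both, against 1547 in the control. There the pair of arrays without guanosine was above the pair with it, and the difference with MPA was 0.02. Among the eEF1B subunits EEF1B2 differed by -0.23, EEF1D by -0.17 and EEF1G by 0.01.

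The scanning factors held the largest difference. EIF1AX, which keeps the small subunit open for scanning and start codon selection, had 416 with MPA, 706 with guanosine and 778 with both, against 768 in the control. Its signal with MPA was 0.541 times the control, or -0.89, and the second EIF1AX probe set gave -0.96. EIF1AD, an eIF1A-related protein, had 436 with MPA, 628 with guanosine and 669 with both, against 638 in the control, a difference of -0.55 that its second probe set gave as -0.73. EIF1B, a near copy of the start codon fidelity factor EIF1, went the other way, with 1623 with MPA, 1553 with guanosine and 1609 with both, against 1462 in the control. All 3 treated arrays were above the control for EIF1B, by 0.15 with MPA, 0.09 with guanosine and 0.14 with both.

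**Figure D2:**
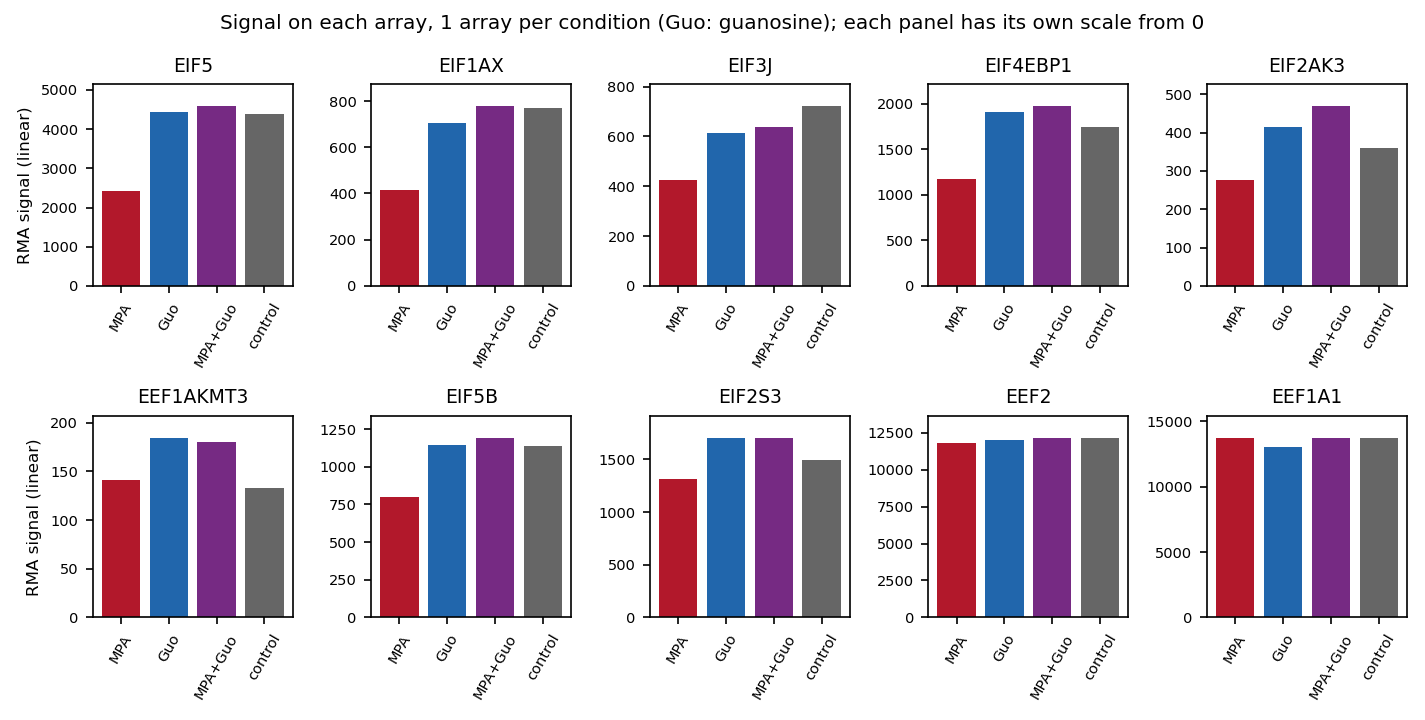
RMA signal of 10 members on each of the 4 arrays (Guo, guanosine), 1 bar per array, with an axis from 0 for each gene. For EIF5, EIF1AX and EIF3J the MPA bar is the low one, EEF1AKMT3 is high on both guanosine arrays, and EEF2 and EEF1A1 are level.

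The eIF3 complex, the large scaffold that recruits mRNA to the small subunit, was split. Of its 12 genes 8 were lower with MPA and 4 higher, with a median of -0.17. EIF3J, a loosely held subunit near the mRNA channel, had 425 with MPA, 616 with guanosine and 637 with both, against 722 in the control. The MPA array was lowest at -0.76, and both guanosine arrays were also below the control, by -0.23 with guanosine and -0.18 with both. The core subunit EIF3A had 729.7 with MPA, 1089 with guanosine and 1125 with both, against 1027 in the control, a difference of -0.49 with MPA.

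EIF3B, another core subunit, differed by -0.50 with MPA, and its other 6 probe sets above the floor were at -0.73 to -0.60. EIF3M was at -0.47. At the other end EIF3H, a peripheral subunit, had 2681 with MPA, 2192 with guanosine and 2242 with both, against 2219 in the control. Only the MPA array stood apart for EIF3H, at 0.27, the highest difference of any member. The range within this one complex, from -0.76 to 0.27, was nearly that of all 56 members.

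The cap-binding and helicase group had a lower signal with MPA in 9 of the 9 genes above the floor. The median was -0.26, and no difference passed 1.5-fold. After cyclic loess it was 8 of 9, with EIF4A2 at 0.05. The other 2 of the 11 genes listed, EIF4E1B and EIF4E3, were below the floor. EIF4E, the cap-binding protein, had 1627 with MPA, 2134 with guanosine and 2040.3 with both, against 2226 in the control, a difference of -0.45. Its 3 other probe sets above the floor gave -0.67, -0.58 and -0.53. EIF4G1, the scaffold that binds eIF4E and the helicase, had 976 with MPA, 1149 with guanosine and 1072 with both, against 1237 in the control. The control was the highest array for EIF4G1, and the difference with MPA was -0.34. It was also the member with the lowest value when MPA was added to guanosine, at -0.10.

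The helicases EIF4A1 and EIF4A2 were nearly level on their brightest probe sets, but not on all. EIF4A1 had 212 with MPA, 217 with guanosine and 217 with both, against 219 in the control, a difference of -0.04. Its other 2 probe sets above the floor were at -0.33 and -0.03, and those named for EIF4A1 and further genes were not used. EIF4A2 had 2264 with MPA, 2033 with guanosine and 2008 with both, against 2299 in the control. For EIF4A2 the arrays with guanosine were the low ones, by -0.18 with guanosine and -0.20 with both, and the MPA array was at -0.02. With MPA its other 2 probe sets above the floor were at -0.32 and -0.19, and with guanosine at -0.35 and 0.12. The remaining 5 genes of the group lay between -0.30 for EIF4A3, a part of the exon junction complex, and -0.11 for EIF4G2, an eIF4G relative that lacks the eIF4E site.

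**Figure D3:**
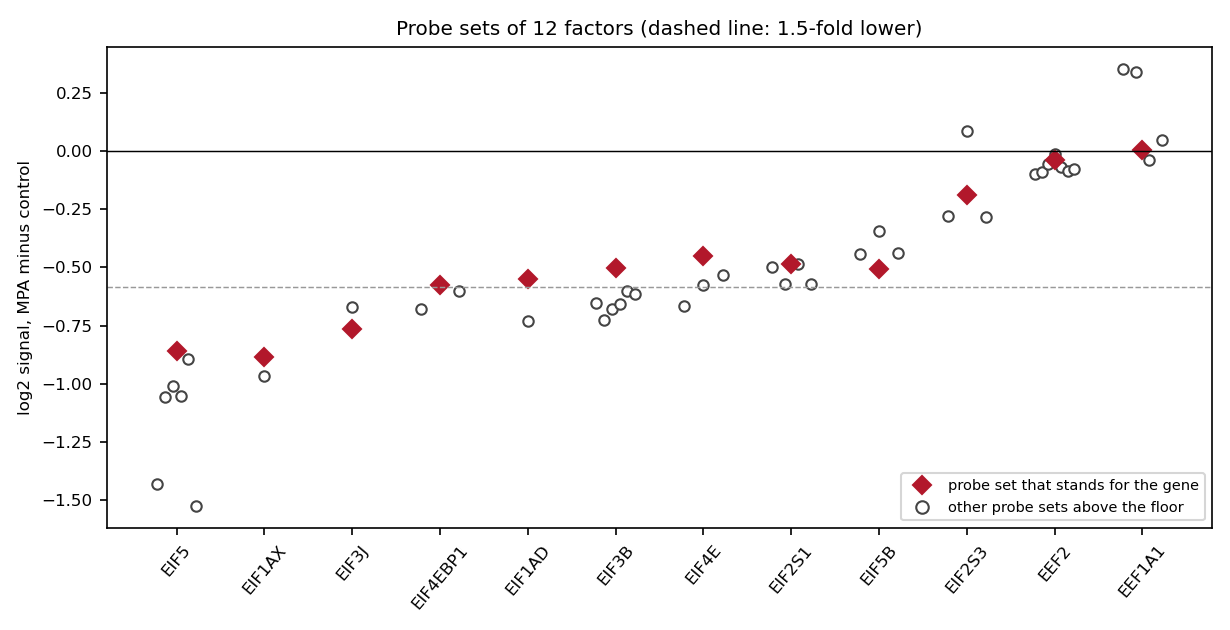
Log2 difference, MPA minus control, for each probe set above the floor of 12 members; the filled diamond is the probe set that stands for the gene and open circles are the others. All EIF5 probe sets lie between -1.52 and -0.86, EIF5B stays between -0.51 and -0.34, and those of EIF2S3 and EEF1A1 fall on both sides of 0.

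Among the regulators EIF4EBP1, the repressor that sequesters eIF4E until mTOR phosphorylates it, was lowest. It had 1170.3 with MPA, 1908 with guanosine and 1972 with both, against 1744 in the control. The difference with MPA was -0.58, just short of 1.5-fold, and its other 2 probe sets were at -0.68 and -0.60. EIF4EBP2, its relative with the same action, had 406 with MPA, 324 with guanosine and 317 with both, against 373 in the control. The MPA array was the highest for EIF4EBP2, at 0.12, although some of its other probe sets had the opposite sign.

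Of the 4 kinases of eIF2 alpha 3 were lower with MPA. EIF2AK3 (PERK), which responds to unfolded protein in the endoplasmic reticulum, had 277 with MPA, 415 with guanosine and 469 with both, against 361 in the control. The differences were -0.38 with MPA, 0.20 with guanosine and 0.38 with both, so the MPA array lay below the control and both guanosine arrays above it. EIF2AK2 (PKR), the sensor of double-stranded RNA, was at -0.23 with MPA and EIF2AK1 (HRI), the heme-regulated kinase, at -0.16. EIF2AK4 (GCN2), which senses uncharged tRNA, had 372 with MPA, 381 with guanosine and 369 with both, against 366 in the control, and its 3 treated arrays differed from the control by at most 0.06. EEF2K, the kinase that inactivates eEF2, had 327 with MPA, 415 with guanosine and 416 with both, against 370.2 in the control. Its difference of -0.18 with MPA was -0.04 on its other probe set, which lacks the _x_at mark. Over the 8 inhibitors and kinases, 5 were lower and the median was -0.17.

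EIF6, which keeps the large subunit from joining too early, had 3059 with MPA, 3649.7 with guanosine and 3696 with both, against 3667 in the control, a difference of -0.26. EIF5A, the hypusine-bearing factor that helps the ribosome past difficult stretches, was at -0.21. EIF5A2, its less widely expressed isoform, had 123 with MPA, 117 with guanosine and 109 with both, against 116 in the control, a difference of 0.09. None of these 3 passed 1.5-fold.

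The methyltransferases that modify lysines of eEF1A were the role group with the highest medians on both guanosine arrays, 0.30 with guanosine and 0.31 with both over 3 genes. EEF1AKMT3 had 141 with MPA, 185 with guanosine and 180.3 with both, against 133 in the control. The guanosine arrays were higher than the control by 0.48 with guanosine alone and 0.44 with both, and the MPA array by 0.09. EEF1AKMT2 had 269 with MPA, 413 with guanosine and 415 with both, against 335 in the control. It was lower with MPA, at -0.32, and higher on both guanosine arrays, by 0.30 with guanosine and 0.31 with both. Of the other EEF1AKMT2 probe sets above the floor 1 was at 0.02 with MPA, and EEF1AKMT3 had no second probe set above the floor. EEF1AKMT1 did not share the raised values, at -0.10 with guanosine and 0.04 with both. The poly-A spike-ins were also above the control on these arrays, in 12 of 12 probe sets each, by medians of 0.22 and 0.27, and their part in these values was not tested.

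Guanosine alone left these genes near the control. Of 56 members 0 passed 1.5-fold in either direction, where 0.11% of all genes were lower and 0.339% higher by that much, and the median was -0.01. The range ran from -0.23 for EIF3J to the 0.48 of EEF1AKMT3. With both compounds together 0 members again passed, beside 0.137% of all genes lower and 0.421% higher, and the median was 0.01. The range was -0.23 for EIF4EBP2 to 0.44 for EEF1AKMT3, and 34 of the 56 lay within 0.1 of the control, compared with 17 of 56 with MPA alone. Genes within 0.1 were counted for the members only, not over all genes. These 3 comparisons share the control array. It was the highest of the 4 arrays for 18 members, a count not made over all genes.

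When guanosine was already present, the differences made by MPA were small. Both compounds minus guanosine alone gave 53 of 56 members within 0.1 of 0, a count not made over all genes. The median was 0.01 and the range ran from -0.10 for EIF4G1 to 0.18 for EIF2AK3. No member passed 1.5-fold, where 0.0184% of all genes were lower and 0% higher by that size. The SD over members was 0.06, against 0.26 for MPA minus control, a comparison with which it shares no array. Over all genes the SDs were 0.10 and 0.41, so the smaller spread was not particular to the members. Across the 56 members the 2 sets of differences had a Pearson r of -0.32 and a Spearman rho of -0.25, as a description over genes that share all 4 arrays. Over all genes r was -0.01. EIF1AX, EIF5 and EIF3J, the 3 lowest with MPA alone, were at 0.14, 0.05 and 0.05 when guanosine was present.

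Adding guanosine to MPA gave higher signals for most members than MPA alone. Both minus MPA had a median of 0.14 over 56 members against 0.02 over all genes. Higher were 43 of the members and 5811 of all 11215 genes. Among brighter genes, those reaching a signal of 244, the medians lay nearer each other. There 51 members were at 0.14, with 39 higher, and all 6769 genes were at 0.08, with 4094 higher. Of the 56, 7 were higher by at least 1.5-fold and 0 lower, where 8.47% of all genes were higher and 4.77% lower. The members' share was above this background, but on the brightest probe sets no member reached the 2-fold that 1.55% of all genes did. With the median over its probe sets EIF5 passed that size, at 1.13. The poly-A spike-ins were higher in the same comparison in 12 of 12 probe sets, by a median of 0.60, and their part in the result was not tested. After cyclic loess the member median was 0.07, against -0.04 over all genes. With that step 4 members passed 1.5-fold, a share of 7.14% against 6.75% of all genes, so the share was then close to the background.

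The 7 genes came from 5 of the role groups. EIF5 led at 0.92 and EIF1AX followed at 0.90. Next were the kinase EIF2AK3 at 0.76, the repressor EIF4EBP1 at 0.75, the methyltransferase EEF1AKMT2 at 0.63, the core subunit EIF3A at 0.62 and EIF1AD at 0.62. EIF3J lay just under the 1.5-fold line at 0.58, followed by the GTPase EIF5B at 0.58. For EIF2AK3, EEF1AKMT2, EIF4EBP1 and EIF3A the combined array was above the control by 0.13 to 0.38, whereas for EIF5, EIF1AX and EIF1AD it was within 0.07 of it. The lowest value was that of EIF4EBP2, at -0.36, followed by EIF3H at -0.26 and EIF2D at -0.24, and EIF3H and EIF2D had been the 2 highest with MPA alone. Both comparisons use the MPA array, so a low value there alone gives opposite signs in the pair.

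**Figure D4:**
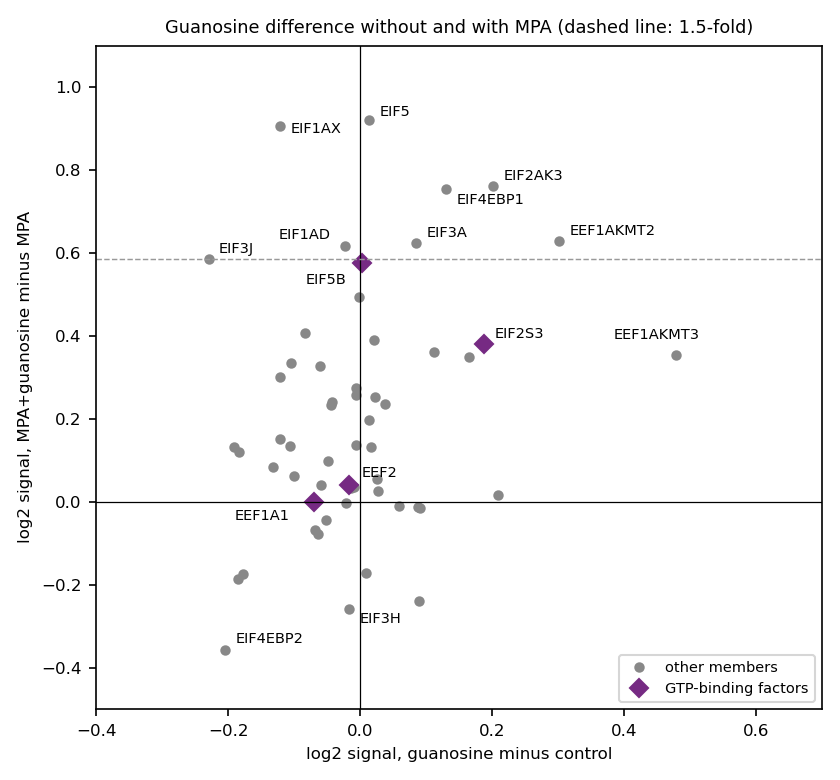
Log2 difference made by guanosine without MPA (guanosine minus control, x axis) and with it (both compounds minus MPA, y axis) for 56 members, with the GTP-binding factors as diamonds. The axes share no array; x values run from -0.23 to 0.48 and 7 members lie above the 1.5-fold line on y.

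Genes with several probe sets allow a check within each array. Of 47 members with at least 2 probe sets above the floor, all other probe sets shared the sign of the brightest in MPA minus control in 39. In the other 8 (EEF1A1, EEF1AKMT2, EIF2S2, EIF2S3, EIF3F, EIF3G, EIF4B and EIF4EBP2) at least 1 had the opposite sign. Of 15 such members lower by at least 0.3 on the brightest probe set, 13 had all others lower as well, and in 8 the median of the others was further below 0. When a gene was given by the median over its probe sets in place of the brightest, 6 of 55 members were lower by 1.5-fold with MPA, a share of 10.9% against 6.88% of all genes, instead of 3 of 56.

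The first bases of the annotated transcripts were examined because many mRNAs of the translation apparatus begin with a C and a run of pyrimidines, the terminal oligopyrimidine tract through which mTOR controls their translation. RefSeq windows on GRCh38.p14 were at hand for 48 of the 60 members. The search asked for C at the annotated first base followed by at least 4 further C or T, on the transcribed strand, and it was chosen after the array values had been seen. Such a start was present in 12 of the 48, or 25%, against 5.14% of 27305 genes with windows of the same length. Those 27305 genes were not limited to genes compared on the arrays. Among genes compared with MPA, 687 had the run and 8571 did not. In each line below 15 bases before the start come first, and capitals mark the pyrimidine run from the annotated first base or, where there is no such start, that first base alone. The first 4 have the run, among them the elongation factors EEF1A1, EEF2 and EEF1B2. EEF1G also has a window but lacks the run, and it is not shown. The rest are the genes that were lowest with MPA or bind GTP and lack the run.
EEF1A1, chr6:73521018-73521047, minus strand: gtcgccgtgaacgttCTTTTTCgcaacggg
EEF2, chr19:3985449-3985478, minus strand: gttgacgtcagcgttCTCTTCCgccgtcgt
EEF1B2, chr2:206159880-206159909, plus strand: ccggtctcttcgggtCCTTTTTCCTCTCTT
EIF2S3, chrX:24054941-24054970, plus strand: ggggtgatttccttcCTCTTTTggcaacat
EIF5B, chr2:99337374-99337403, plus strand: gcgcactgagaactcAcaccatatgtgtcc
EIF5, chr14:103334222-103334251, plus strand: gcggcggcgttgttcAgtcagagcgagaac
EIF1AX, chrX:20141824-20141853, minus strand: gcaaagagtcgcggcGccatttgctgccgc
EIF3J, chr15:44537132-44537161, plus strand: cacctccgccgtgctAactcctcgctagct

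The runs shown are 7 bases long in EEF1A1, EEF2 and EIF2S3 and reach at least 15 in EEF1B2, which has a second annotated start without one. EIF5 also has a second annotated start, which lacks the run too. The other members with such a start were EIF2A, EIF2D, EIF3D, EIF3F, EIF3K, EIF3M, EIF4A2 and EIF4B. With MPA the 12 members with the run had a median log2 difference of -0.03, from -0.47 for EIF3M to 0.26 for EIF2D, and 0 passed 1.5-fold. The 33 compared members without it had a median of -0.22, and all 3 members past 1.5-fold were among them. Over all genes the medians were -0.02 for 687 genes with the run and 0.00 for 8571 without. Lower by at least 1.5-fold were 51 of these 687 genes and 649 of the 8571, similar shares of each set. Higher by that size were 34 and 446. When MPA was added to guanosine the 2 sets of members had medians of 0.01 and 0.00. A match describes letters in an annotated window and the arrays do not read translation.

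**Figure D5:**
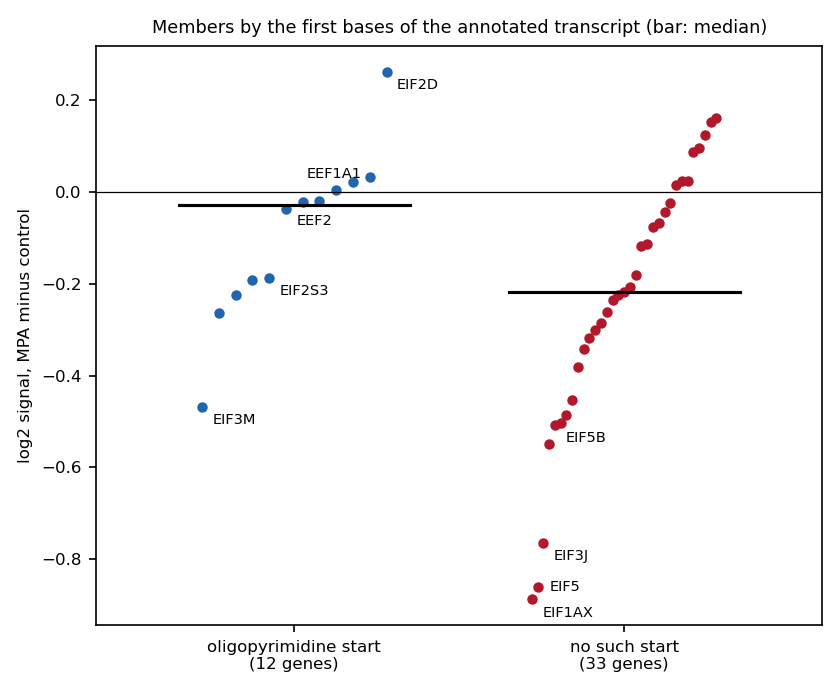
Log2 difference, MPA minus control, of the 45 members compared that have a promoter window, by whether the annotated transcript begins with C and at least 4 pyrimidines; bars are medians, -0.03 with such a start and -0.22 without. EIF5, EIF1AX and EIF3J are in the set without it. Over all genes, 51 of 687 with such a start and 649 of 8571 without were lower by at least 1.5-fold.

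The E-box CACGTG, a palindrome that MYC and related factors can bind, was also searched for, likewise after the values had been seen, in these windows, which run from 250 bases before the start to 50 after it. It was present in 12 of 48 members, or 25%, against 8.77% of all genes with a window, whether or not they were compared. Among genes compared with MPA, 1191 had the E-box and 8067 did not. EIF4E had 2, and the nearer, 72 bases before its start, is shown here with the motif in capitals.
EIF4E, chr4:98929188-98929217, minus strand: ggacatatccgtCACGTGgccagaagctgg

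With MPA the 12 members with an E-box had a median of -0.20 and the 33 without it -0.19, so this motif did not separate the members that were lower. Of the 3 members past 1.5-fold, 0 had it. Over all genes, 93 of the 1191 with the E-box and 607 of the 8067 without it were lower by that size.

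Other genes of the translation pathway were described from 7 lists that leave out the members, 53 genes of which 50 were compared. With MPA 34 of the 50 were lower, with a median of -0.16, close to that of the members, and 3 were lower and 2 higher by at least 1.5-fold. Both shares were below the 7.31% and 5.31% of all genes. Termination and recycling was the group with the lowest median, at -0.29 with 7 of 8 lower. ABCE1, the ATPase that splits ribosomes after termination, had 486 with MPA, 886 with guanosine and 802 with both, against 883 in the control, a difference of -0.86. GSPT2, a copy of the release factor GTPase eRF3, was the one that was higher, at 0.38. The poly(A)-binding group ran from -0.32 for PAIP1 to 0.08 for PAIP2, with 3 of 4 lower.

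In the mTOR and MAP kinase list 7 of 11 were lower. RPTOR, the scaffold of mTOR complex 1, had 311 with MPA, 519 with guanosine and 537 with both, against 482 in the control, a difference of -0.63. PDCD4, an inhibitor of the eIF4A helicase, was the highest of all 50, with 321 with MPA, 203 with guanosine and 207 with both, against 175 in the control. The MPA array was alone in its height for PDCD4, at 0.88. The eIF2 alpha phosphatase subunits ran from -0.43 for the catalytic subunit PPP1CC to 0.41 for the stress-induced regulator PPP1R15A, with 4 of 5 lower.

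Hypusine and diphthamide enzymes, which modify eIF5A and eEF2, ran from -0.91 for DPH7, the lowest of the 50, to 0.64 for DPH6. DPH7 had 86.2 with MPA, 164 with guanosine and 175 with both, against 162 in the control. Selenocysteine genes ran from -0.16 for SEPHS1 to 0.29 for SEPHS2, with 2 of 5 lower. Mitochondrial translation factors, a separate machinery with its own GTPases, ran from -0.42 for MTRFR to 0.32 for MTRF1, with 7 of 10 lower and none past 1.5-fold. With both compounds against MPA alone, 4 of the 50 were higher by 1.5-fold (DPH7, RPTOR, ABCE1 and DDIT4) and 2 lower (PDCD4 and RPS6KA1), shares close to the 8.47% and 4.77% of all genes. None of the 50 passed it with guanosine alone, with both against the control, or with both against guanosine.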

How the data were processed

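The authors deposited RMA signal, an intensity on the linear scale for each probe set, per the labels' descriptions; RMA corrects background, normalises by quantiles and summarises probes by median polish. The software, its version and its settings were not given in the sources used here. Conditions were read from each array's own label. The log2 of each intensity was taken, a single symbol was found in the platform annotation for 44988 of 49395 probe sets, and each gene was represented by its brightest probe set over the 4 arrays. The 60 members had 201 probe sets; 7 had 1 only and 16 were represented by an _x_at probe set, whose probes can bind other transcripts. All 60 symbols were the RefSeq symbols of their Entrez IDs. The floor was the median non-control value, 5.98 on the log2 scale. Members were counted past 1.5-fold and 2-fold in 5 comparisons; with 1 array per condition no test was possible, and the precision of each value is limited by that number of arrays. The members and lists were chosen with earlier results of these data known. Named were all GTP-binding factors, the ends of each role list with MPA, every member past 1.5-fold and 8 factors in any case; other members named were picked after their values were seen. Between arrays the correlation of log2 values was 0.988 to 0.990 with the MPA array and 0.997 to 0.998 among the other 3. Alternatives were no floor, a 75th percentile floor, a median over each gene's probe sets, _x_at probe sets left out, genes whose probe sets all had 1 direction, cyclic loess (limma 3.58.1, 3 iterations, in R 4.3.3) and 2-fold. Python 3.11.15 with numpy 2.4.6 and pandas 2.3.3 did the rest. The counting was tested on simulated data. Sequences are RefSeq's, on GRCh38.p14.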

Additional observations from a re-analysis of the deposited data

Results flagged for a closer look

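EIF1AX was the member flagged, because its differences went opposite ways, past the sizes given below, in contrasts that share no array. Other members, such as EIF5 at -0.86 and 0.05, had opposite signs without passing both sizes. EIF1AX was at -0.89 for MPA minus control and at 0.14 for both compounds minus guanosine, a gap of -1.03 on the log2 scale. The same 4 signals gave -0.12 for guanosine minus control and 0.90 for both compounds minus MPA, again -1.03 apart. In each pair 1 value was past 1.5-fold and the other was further from 0 than 0.0797, a robust SD of both minus guanosine over all genes. With 1 array per condition the difference was not tested. The second EIF1AX probe set gave -0.96 for MPA minus control and 0.92 for both minus MPA, but -0.02 for both minus guanosine and -0.03 for guanosine minus control. Those last 2 values lie within 0.0797 of 0, so the opposite direction rests on 1 probe set.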

How the results depend on the processing

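Counts and medians of the members were recomputed for all 5 comparisons, and single members for MPA minus control and both minus MPA; pathway and motif values were not. Up to 11 members had no value under a setting, where a gene fell below the floor or its probe sets were left out. Of 71 alternative values for the counts and medians, 65 stayed within 1.5 times the count or within 0.0797 of the median. That width is a spread over single genes and is wide beside these medians. After cyclic loess the median went from -0.18 to -0.11 with MPA and from 0.14 to 0.07 for both minus MPA. Each still counted as unmoved. In the other 3 comparisons the count was 0 under every setting and the medians were near 0, so the tally says little there. With a median over each gene's probe sets, 6 members in place of 3 passed 1.5-fold with MPA, which put their share above that of all genes (10.9% against 6.88%) in place of below it. At 2-fold on the brightest probe sets the count was 0 with MPA, and it was also 0 for both compounds minus MPA. With the median over its probe sets EIF5 passed 2-fold in these comparisons, at -1.22 and 1.13. After cyclic loess 4 members in place of 7 passed for both minus MPA, 7.14% against 6.75% of all genes. Where only genes whose probe sets all had 1 direction were kept, the median was -0.27 for the GTP-binding factors with MPA and 0.24 for members with both minus MPA. Of 635 alternative values of single members 88 moved by more than 0.0797. Among members past 1.5-fold on the brightest probe sets 0 values changed sign, but signs did change among smaller differences. With the median over its probe sets EIF2S2 went from -0.34 to 0.22 with MPA. With _x_at probe sets left out EEF2K went from 0.35 to -0.06 for both minus MPA. The cause was not tested. No paired analysis was possible because each condition has 1 array. The limits are 1 culture per condition, mRNA in place of protein, and probes of EEF1A1 and EIF5A that near-identical copies can share.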
